A study of Mus musculus with 24 samples.

Results

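At the change from light to dark, livers labelled as lacking both Rev-erb receptors were compared with wild-type livers, using the 4 of the 24 arrays of the series that were made from liver collected at ZT12. ZT gives the hour after the lights come on. Under the usual light schedule ZT12 is dusk, when mice begin to feed, although neither the schedule nor the feeding is stated in the sources at hand. The double knockout group (DKO, 2 arrays) is the strain Reverbalpha/beta Alb Cre+, in which an albumin-driven Cre recombinase is meant to remove Rev-erb alpha and Rev-erb beta from the liver. Its control (WT, 2 arrays) is the strain Reverbalpha/beta Alb Cre-, named by the labels as the same alleles without the Cre. All mice were males on a c57Bl6/J background, 20 weeks old, and no treatment is named. Albumin Cre acts in hepatocytes, so the other cells of the liver should keep their receptors. The labels call the 2 arrays of each group technical replicates, so each genotype is 1 RNA sample at ZT12, and the labels do not say how many animals it represents. Differences are therefore described by their size, with every array shown, and carry no test of genotype.

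Rev-erb alpha and Rev-erb beta, encoded by Nr1d1 and Nr1d2, are nuclear receptors that bind DNA and recruit a corepressor complex containing the deacetylase Hdac3. In the clock they repress Arntl, whose product Bmal1 pairs with Clock to switch on the Per, Cry and Rev-erb genes, and those products in turn shut the cycle down. In liver the same receptors repress genes of lipid metabolism, and their protein is known to be most abundant in the later part of the light phase, shortly before dusk.

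Before normalization the median signal was 297 and 277 intensity units on the DKO arrays and 252 and 256 on the WT arrays. Of 25697 probes, 36.1 to 36.7% were detected in DKO and 38.2 to 38.8% in WT, detection meaning a p-value against the negative control beads under 0.01. After normalization the arrays of 1 sample correlated at 0.990 in DKO and 0.995 in WT. The technical SD of a single array, derived from their difference, was 0.22 and 0.16 on the log2 scale. The SD of the difference itself is larger. At ZT12 slide 1 carried the DKO arrays and slide 3 the WT arrays, and the effects of slide and of genotype cannot be told apart. Hepatocyte markers were as labelled for liver, with Ttr at 16.12 to 16.14 and Hnf4a at 13.22 to 13.49 on all 4 arrays. The probes for Alb and Tat were the exceptions, with Alb detected on 1 WT array and Tat on none. Values near 16 lie at the top of the scale, where differences are compressed.

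Of 7272 genes measured, 104 were higher in DKO, which is 1.43% of them, and 139 were lower, which is 1.91%. A gene was counted when its nearest DKO and WT arrays lay at least 1 apart on the log2 scale, a 2-fold gap, and its probe was detected on both arrays of the higher genotype. In either direction the count was 243 genes, or 3.34%, of which 42.8% were higher in DKO. These shares over all genes are the background for the counts given below for each gene list. A single counted gene does not set a list apart. With undetected probes taken at their bound, 4-fold or more was reached by 22 of the higher and 22 of the lower genes. The median difference over all genes was 0.01, with quartiles at -0.25 and 0.26. Quantile normalization gives every array the same distribution, so a median near 0 is largely set by it and is no result. In bulk liver, fewer cells of a type and less RNA per cell cannot be told apart. Within a single sample, 103 genes lay at least 1 apart between the 2 DKO arrays and 16 between the 2 WT arrays. Scaling the arrays to equal medians instead of equal distributions gave 50 higher and 367 lower genes, 12.0% of them higher, with all genes shifted by -0.37. Once that shift was removed, the counts were 109 and 129. The authors' own processed values gave 52 and 58.

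**Figure D1:**
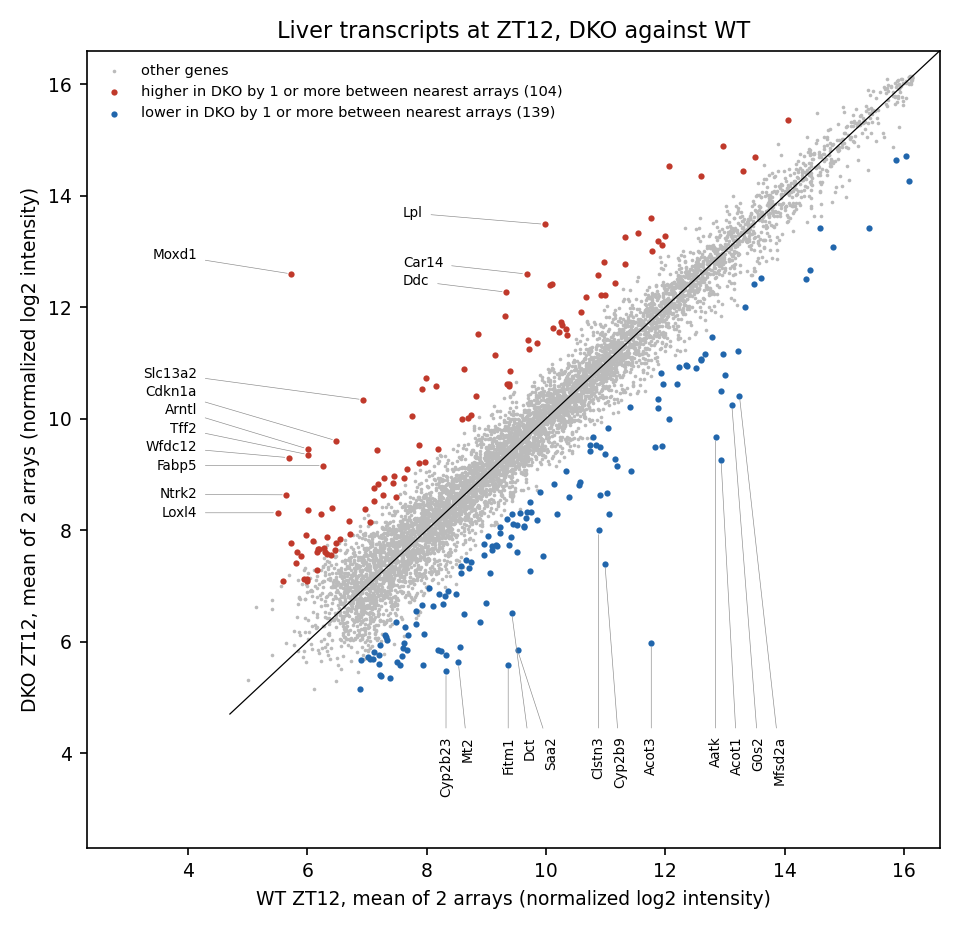
Each point is 1 of 7272 genes, with the mean normalized log2 intensity of the 2 WT arrays on the horizontal axis, that of the 2 DKO arrays on the vertical axis, and the line of equality. The 104 genes counted as higher in DKO are red, the 139 counted as lower are blue, and the 12 furthest in each direction are named, from Moxd1 at 6.86 to Acot3 at -5.79.

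The targeted genes were both still detected. Nr1d1 was at 9.72 and 9.84 in DKO and at 9.13 and 9.05 in WT, higher by 0.69, and a further probe of it was higher by 0.40. Nr1d2 was at 10.09 and 9.97 in DKO and at 10.90 and 10.94 in WT, lower by 0.89 in DKO. Neither pair of arrays overlapped, yet neither gap reached 1. Where the probes lie against the deleted exons is unknown here, so these values check nothing about the deletion, and the genotypes are taken from the labels. At the other times Nr1d1 was higher in DKO by 0.52 to 2.41. Nr1d2 was also lower in DKO at ZT8, at a mean of 10.06 against 10.46 in WT. It was higher in DKO at ZT0, at 9.58 against 7.70, at ZT20, at 9.91 against 8.36, and at ZT4 and ZT16. Hdac3, in the corepressor complex, differed by -0.17, and none of 3 measured members of that complex was counted.

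Among the clock activators and known Rev-erb targets, 2 of 5 measured genes were higher in DKO and none was lower. No median is given for them, because it falls on Npas2, an undetected probe. Arntl, the gene for Bmal1, was at 9.35 and 9.56 (normalized log2 intensity) in DKO and at 6.33 and 5.69 in WT, where its probe was not detected. Both DKO arrays lay far above both WT arrays, by at least 6.42-fold in the means. Nfil3, a repressor of genes with D-box elements, was at 12.71 and 12.84 in DKO and at 11.30 and 11.34 in WT, or 2.74-fold higher without overlap. Clock, the partner of Bmal1, was higher by 0.79, below the size needed to be counted, and the receptor gene Rora differed by -0.03. Npas2, a relative of Clock, lay 1.18 higher but was not detected on any of the 4 arrays, so it has no fold.

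The promoters of Arntl, Leo1 and Per1 are printed because each holds an element through which the clock is known to act, Arntl and Per1 being the clock-list genes furthest up and furthest down. The sequences are from RefSeq on GRCm38.p6 and run 5′ to 3′ along the gene from 250 bases before to 50 bases after its start, with the matched element in capitals. Arntl lies on the + strand at chr7:113207261-113207560, and its element AAGTAGGTCA, an AGGTCA half-site preceded by AANT (N being any base) as bound by Rev-erb and ROR receptors, begins 27 bases downstream of the start. Leo1, on the + strand at chr9:75441274-75441573, holds AACTAGGTCA 66 bases upstream. Per1, on the + strand at chr11:69098699-69098998, holds the E-box CACGTG, the form bound by Bmal1 and Clock, 166 bases upstream and the D-box TTATGCAA, of the form TTATGNAA, 24 bases upstream.
Arntl: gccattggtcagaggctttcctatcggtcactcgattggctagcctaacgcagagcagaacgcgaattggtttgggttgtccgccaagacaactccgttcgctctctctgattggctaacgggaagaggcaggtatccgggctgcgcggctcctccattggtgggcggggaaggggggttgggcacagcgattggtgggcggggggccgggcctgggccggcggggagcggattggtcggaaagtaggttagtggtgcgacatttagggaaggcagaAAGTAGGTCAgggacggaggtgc
Leo1: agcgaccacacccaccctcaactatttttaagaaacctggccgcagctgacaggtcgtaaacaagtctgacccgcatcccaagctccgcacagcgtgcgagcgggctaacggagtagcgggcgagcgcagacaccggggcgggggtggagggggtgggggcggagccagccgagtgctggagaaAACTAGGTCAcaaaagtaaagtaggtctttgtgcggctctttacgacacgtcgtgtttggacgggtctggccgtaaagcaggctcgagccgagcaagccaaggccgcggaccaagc
Per1: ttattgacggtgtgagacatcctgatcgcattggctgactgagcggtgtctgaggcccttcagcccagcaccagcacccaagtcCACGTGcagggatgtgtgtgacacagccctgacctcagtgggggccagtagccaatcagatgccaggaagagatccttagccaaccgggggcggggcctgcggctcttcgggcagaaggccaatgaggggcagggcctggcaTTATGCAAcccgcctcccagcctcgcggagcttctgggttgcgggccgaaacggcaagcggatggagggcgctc

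Both strands were searched for each motif. The Rev-erb and ROR element was found in 72 of 32851 promoters in the table, or 0.219%. Among 96 promoters matched to 74 of the 104 genes higher in DKO it was found in 2, those of Arntl and Tjp3, and among 168 promoters matched to 117 of the 139 lower genes in 0. The E-box was in 7.15% of all promoters, in 6.25% of those of higher genes and in 9.52% of those of lower genes. The D-box was in 3.38%, 2.08% and 7.14%. Among the 7692 promoters of all measured genes that were matched, the shares were 10.2% for the E-box, 2.51% for the D-box and 0.169% for the Rev-erb and ROR element. Of 19 clock-list genes, 17 were matched to 23 promoters. The Rev-erb and ROR element was in 2 of these, the E-box in 4 and the D-box in 2. Besides the printed promoters, those of Ciart and Tef hold the E-box and that of Per3 the D-box. A match describes these letters in this window and shows no binding. Leo1, whose promoter carries the Rev-erb element, was at 8.96 and 8.42 in DKO and at 7.55 and 7.71 in WT, higher by 1.06 with a gap between nearest arrays of 0.72, so it was not counted.

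**Figure D2:**
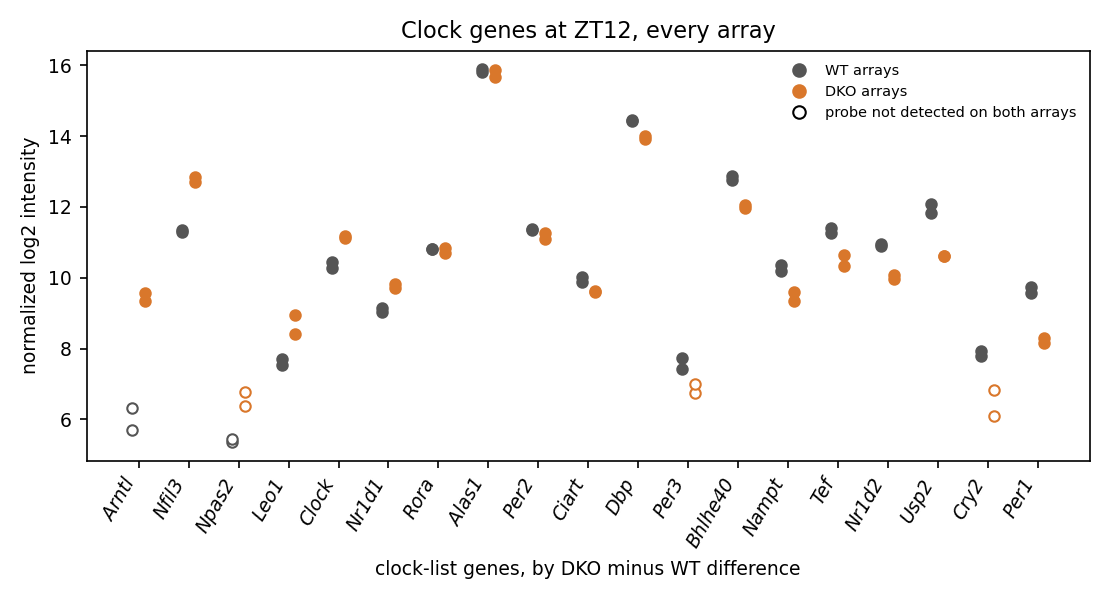
Each circle is 1 array at ZT12, grey for WT and orange for DKO, with normalized log2 intensity on the vertical axis for 19 clock-list genes ordered by the DKO minus WT difference, and open circles where the probe was not detected on both arrays of that genotype. Arntl stands furthest up at 3.45 and Per1 furthest down at -1.45, and Rora and Alas1 overlap.

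All 6 measured clock repressors had a negative difference, with a median of -0.75, and 1 of them, Per1, was counted. Per1 was at 8.29 and 8.15 in DKO and at 9.75 and 9.58 in WT, or 2.73-fold lower. In WT it stood high at ZT8 and ZT12, at 9.53 and 9.66, whereas in DKO it stood at 9.56 at ZT8 and 8.22 at ZT12. A weaker probe of Per1 was lower by 0.91. Cry2, a light-independent repressor of Bmal1 and Clock, was at 6.10 and 6.84 in DKO, where it was not detected, and at 7.93 and 7.78 in WT, at least 1.82-fold lower but with a gap of 0.94. The remaining members were closer together, with Bhlhe40 at -0.80, Per3 at -0.70, Ciart at -0.33 and Per2 at -0.19. Of 6 measured output genes, 1 was counted as lower, the ubiquitin protease gene Usp2, at 10.62 on both DKO arrays and at 11.82 and 12.09 in WT. The D-box activators Tef and Dbp differed by -0.85 and -0.49, Nampt, for the enzyme of NAD salvage, by -0.80, and Alas1, for the first enzyme of heme synthesis, by -0.08. A weaker probe of Tef differed by -0.09. Weaker probes of Nampt and Usp2, both not detected in DKO, differed by -1.19 and -1.39.

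The largest differences at ZT12 were in single genes of several kinds. Moxd1, which encodes a monooxygenase-like protein with male-biased expression in mouse liver, was at 12.51 and 12.68 in DKO and at 5.88 and 5.59 in WT. The DKO arrays lay at least 56.7-fold above WT, where the probe was not detected, and a further probe, also not detected in WT, was higher by 5.33. The WT value was not steady over the day, since Moxd1 stood at 11.91 in WT at ZT4 and between 5.50 and 5.84 at the other WT times. Lpl, lipoprotein lipase, which releases fatty acids from circulating triglyceride and is low in normal adult liver, was at 13.51 and 13.47 in DKO and at 9.93 and 10.03 in WT. Its mean was 11.4-fold higher in DKO at ZT12, and its difference was positive at all 6 times, from 1.01 at ZT4 to 3.93 at ZT0.

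Other genes far higher in DKO included Slc13a2, a citrate and dicarboxylate transporter, at 10.27 and 10.41 in DKO and 6.94 and 6.93 in WT, or 10.6-fold. Ddc, the decarboxylase that makes dopamine and serotonin, was at 12.29 and 12.25 in DKO and 9.31 and 9.35 in WT, or 7.66-fold. Car14, a membrane carbonic anhydrase, was at 12.64 and 12.55 in DKO against 9.68 and 9.67 in WT, or 7.57-fold. In each of these the arrays of a genotype lay close together and far from the other pair. In the remaining members of the 12 largest differences upward the WT probe was not detected, so only bounds can be given. They were at least 5.77-fold for Wfdc12, 5.99-fold for the trefoil factor Tff2, 7.12-fold for the cell cycle inhibitor Cdkn1a, 3.64-fold for the neurotrophin receptor Ntrk2, 5.23-fold for the fatty acid binding protein Fabp5 and 2.91-fold for the lysyl oxidase Loxl4. A further probe of Cdkn1a gave a smaller difference, 0.93, and that of Ntrk2 was not detected on any of the 4 arrays.

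Lower transcripts in DKO were led by the acyl-CoA thioesterases, which split acyl-CoA into free fatty acid and coenzyme A and several of which are induced by fasting. Of 8 measured, 4 were lower, none was higher, and the median difference was -0.80. Acot3, a peroxisomal member, was at 5.89 and 6.06 in DKO, not detected, and at 11.82 and 11.71 in WT, a difference of at least 27.3-fold. Acot1, a cytosolic member, was at 9.43 and 9.09 in DKO and at 12.97 and 12.90 in WT, or 12.7-fold lower. Acot4 was 5.11-fold lower and Acot12 was 2.18-fold lower. The other 4 members lay between -0.47 and 0.29. Acot1, Acot3 and Acot4 are close paralogs, as are pairs among the Cyp2b, Saa and Mt genes below, and whether their probes cross-hybridise was not tested.

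In the list of lipid uptake and droplet genes 4 of 18 measured were lower and 2 were higher, with a median of -0.64. Fitm1, which helps form lipid droplets, was not detected in DKO, at 5.17 and 6.0, and stood at 9.47 and 9.26 in WT, at least 5.18-fold lower. G0s2, an inhibitor of the triglyceride lipase Atgl, was at 10.40 and 10.10 in DKO and at 13.06 and 13.17 in WT, or 7.29-fold lower. Angptl4, a secreted inhibitor of lipoprotein lipase, was at 10.82 and 10.74 in DKO and at 13.08 and 12.91 in WT, or 4.64-fold lower. None of these arrays overlapped between genotypes. Plin2, a droplet coat protein, was at 10.48 and 10.22 in DKO against 11.69 and 12.07 in WT, or 2.90-fold lower. Lpl and Fabp5, which act in uptake and binding of fatty acids, were the 2 higher members. Hilpda, another droplet inhibitor of Atgl, was not counted, with a difference of 0.48.

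Over the day, G0s2 in WT stood at 11.64 at ZT8 and 13.11 at ZT12, while in DKO it stood at 10.99 and 10.25, its lowest of 6 times. Angptl4 in WT was highest at ZT12, at 12.99, against 10.95 to 11.84 at the other times. Its DKO values lay between 10.27 and 11.39. The difference in G0s2 was -2.87 at ZT12 and 0.45 at ZT4, and that in Angptl4 was -2.21 and 0.18.

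Fatty acid oxidation and ketogenesis genes had a median difference of -0.44, with 3 of 17 measured members lower, 1 higher and 14 negative. Cyp4a14, a fatty acid omega-hydroxylase and a target of the fasting receptor Ppar alpha, was at 10.40 and 10.58 in DKO and at 12.90 and 12.95 in WT, or 5.41-fold lower. Ppara, which encodes that receptor, was at 7.69 and 7.79 in DKO and at 9.14 and 9.18 in WT, or 2.67-fold lower. Fgf21, a hormone of the fasted liver, was at 7.25 and 7.23 in DKO and at 8.56 and 8.61 in WT, or 2.54-fold lower. The pairs did not overlap in any of the 3 genes. Pdk4, which blocks the entry of pyruvate into oxidation and is also induced in fasting, went the other way, at 9.12 and 9.33 in DKO and 8.00 and 7.93 in WT. The enzymes of the oxidation spiral itself differed less, with Acadl at -0.44, Acadvl at -0.40 and Acadm at 0.05.

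Pck1, the cytosolic enzyme that commits carbon to glucose synthesis, was at 8.80 and 8.41 in DKO and at 10.37 and 10.40 in WT, or 3.44-fold lower, while G6pc differed by -0.26. In WT it was highest at ZT12, at 10.38, and in DKO it was lowest at ZT12, at 8.60. Ppp1r3c, which targets a phosphatase to glycogen, was 2.47-fold higher in DKO. These were the 2 counted genes of 11 in gluconeogenesis and glycogen, whose median was -0.15. Among 17 insulin and fasting signals, Gadd45g was the 1 higher gene, at 14.57 and 14.49 in DKO and 12.09 and 12.03 in WT, and Fgf21 the 1 lower gene. The insulin-repressed gene Igfbp1 was not counted and lay 1.45 higher, with 1 DKO array and no WT array detected.

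Genes of fat and sterol synthesis were higher in DKO at ZT12 in a few members. Thrsp, a lipogenic protein of the fed liver, was at 14.42 and 14.28 in DKO and at 12.68 and 12.52 in WT, or 3.37-fold higher, and was the 1 counted gene of 13 in de novo lipogenesis. Aacs, which activates acetoacetate for lipid synthesis, was at 13.45 and 13.75 in DKO and at 11.75 and 11.76 in WT, or 3.59-fold higher. The pairs of arrays were well separated in both. In cholesterol synthesis 2 of 16 measured genes were higher and none was lower, against 1.43% and 1.91% of all genes, with a median of 0.22. Insig1, the sterol-regulated retention protein for Srebp, was at 12.66 and 12.50 in DKO and at a mean of 10.87 in WT, with both WT arrays lower. Mvd, an enzyme of the mevalonate pathway, was at 10.41 and 10.42 in DKO and at 8.90 and 8.75 in WT, or 3.01-fold higher. A further probe of Insig1 was higher by 1.46 and another differed by -0.18, so the probes of Insig1 differed in size and sign.

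No classical lipogenic enzyme was counted at ZT12, with Acaca at -0.05, Scd1 at 0.15 and Acly at 0.62. Srebf1, the gene for the transcription factor that drives them, was at 10.20 and 10.58 in DKO and 9.93 and 9.82 in WT, below the size needed. Fasn was detected in WT alone, just above background, and differed by -0.62. The list median was 0.07, near that of all genes. Elovl3, an elongase with strong daily variation, was 2.51-fold higher in DKO at ZT12 and was lower there by 2.69 at ZT0 and by 1.48 at ZT4. Gpat3, an acyltransferase of triglyceride assembly, was the 1 lower gene of 11 in its list, at least 2.51-fold below WT.

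**Figure D3:**
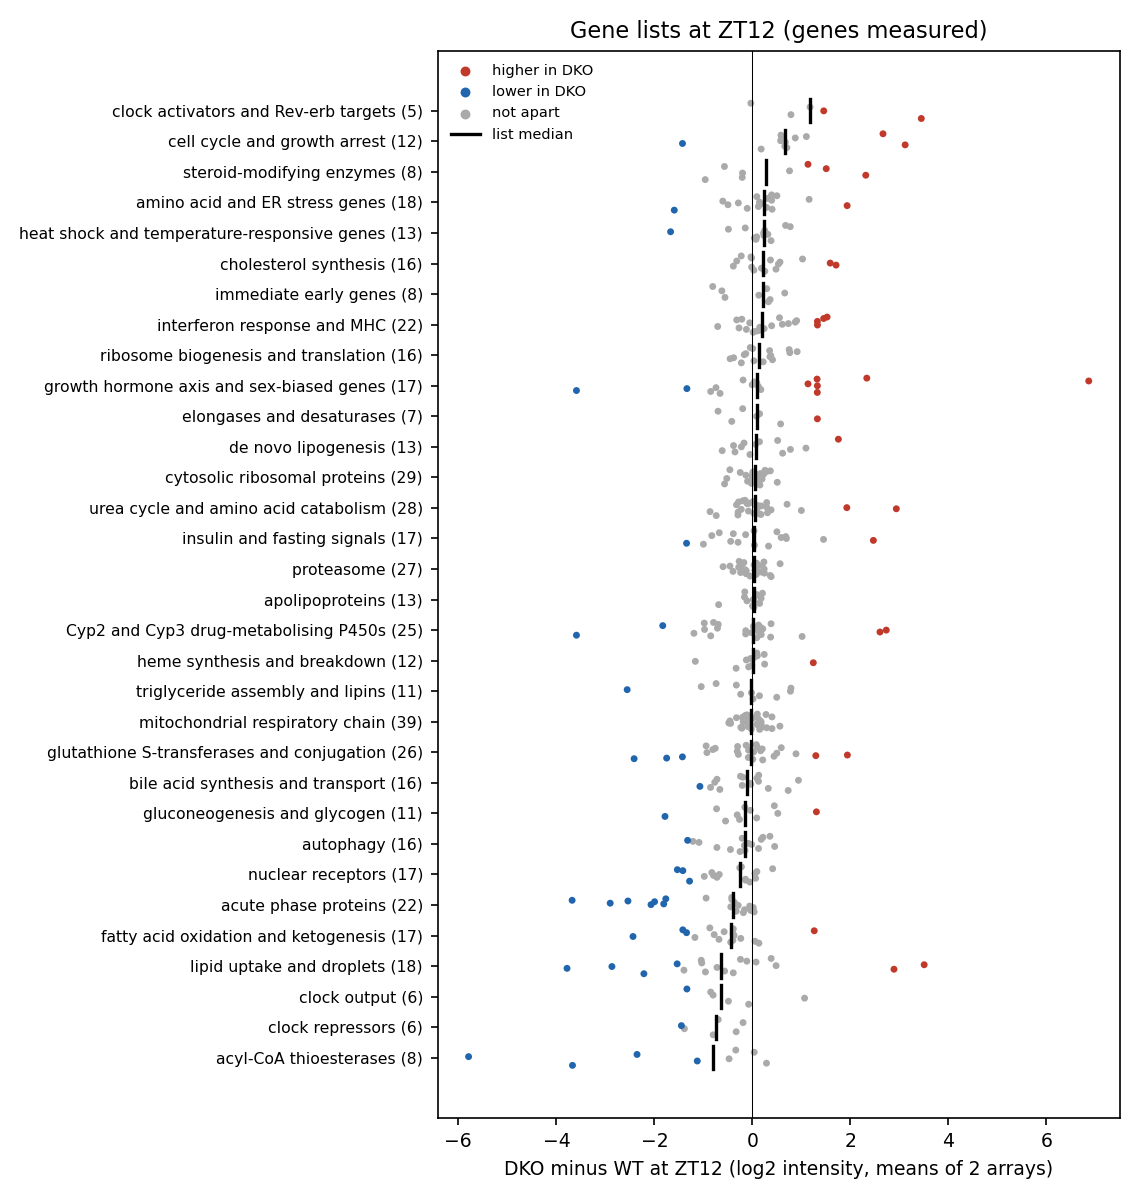
Each point is 1 measured gene of a list with at least 5 measured genes, placed by its DKO minus WT difference in log2 intensity at ZT12, coloured where it was counted as apart, with a bar at the list median. The acyl-CoA thioesterases have the lowest median, -0.80. The ribosomal, respiratory chain, proteasome and apolipoprotein lists hold no counted gene, where 3.34% of all genes were counted.

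The step from ZT8 to ZT12 was compared next, because both DKO times were on slide 1 and both WT times on slide 3, so that a constant slide offset cancels within each genotype. The step shares the ZT12 arrays with the comparison above. In 38 genes, or 0.523%, the DKO step exceeded the WT step by at least 1 in all 16 combinations of arrays, and in 52 genes, or 0.715%, it fell short by as much, with no requirement of detection. In de novo lipogenesis 4 of 13 genes had the higher step and none the lower. The median step in that list was 0.43 in DKO and -0.69 in WT, against 0.00 in both genotypes over all genes. Thrsp stood 0.60 higher at ZT12 than at ZT8 in DKO and 1.48 lower in WT, with the other 3 members being Elovl6, Srebf1 and Acly. In Srebf1 the step was 0.20 in DKO and -1.41 in WT, in Elovl6 0.89 and -0.89, and in Acly 0.51 and -0.83.

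Cholesterol synthesis went the same way, with a median step of 0.54 in DKO and -0.28 in WT and 2 of 16 genes counted, Insig1 and Mvd. Mvd had a step of 0.53 in DKO and -1.53 in WT. Aacs, outside both lists, had a step of 0.77 in DKO and -2.06 in WT. In these genes the WT value was low at ZT12 between higher neighbours or ahead of a low stretch, as the time courses show. WT Thrsp was at 14.08, 12.60 and 14.54 at ZT8, ZT12 and ZT16, and DKO Thrsp at 13.75, 14.35 and 14.32. WT Insig1 was at 11.65, 10.87 and 11.52, and DKO Insig1 at 11.63, 12.58 and 11.31. In fatty acid oxidation and ketogenesis 1 of 17 genes had the lower step, Fgf21 at -0.45 in DKO and 1.72 in WT, and 1 had the higher step, Cyp4a14 at 1.36 and -0.19, while Pdk4 had steps of 1.81 and 2.14 and was not counted. In lipid uptake and droplets 3 of 18 had the lower step, G0s2 at -0.74 and 1.47, Angptl4 at -0.61 and 1.15, and Cidec, not detected in DKO at ZT12, and Fabp5 had the higher step. Among insulin and fasting signals 1 of 17 had the lower step, again Fgf21, and 0 the higher.

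**Figure D4:**
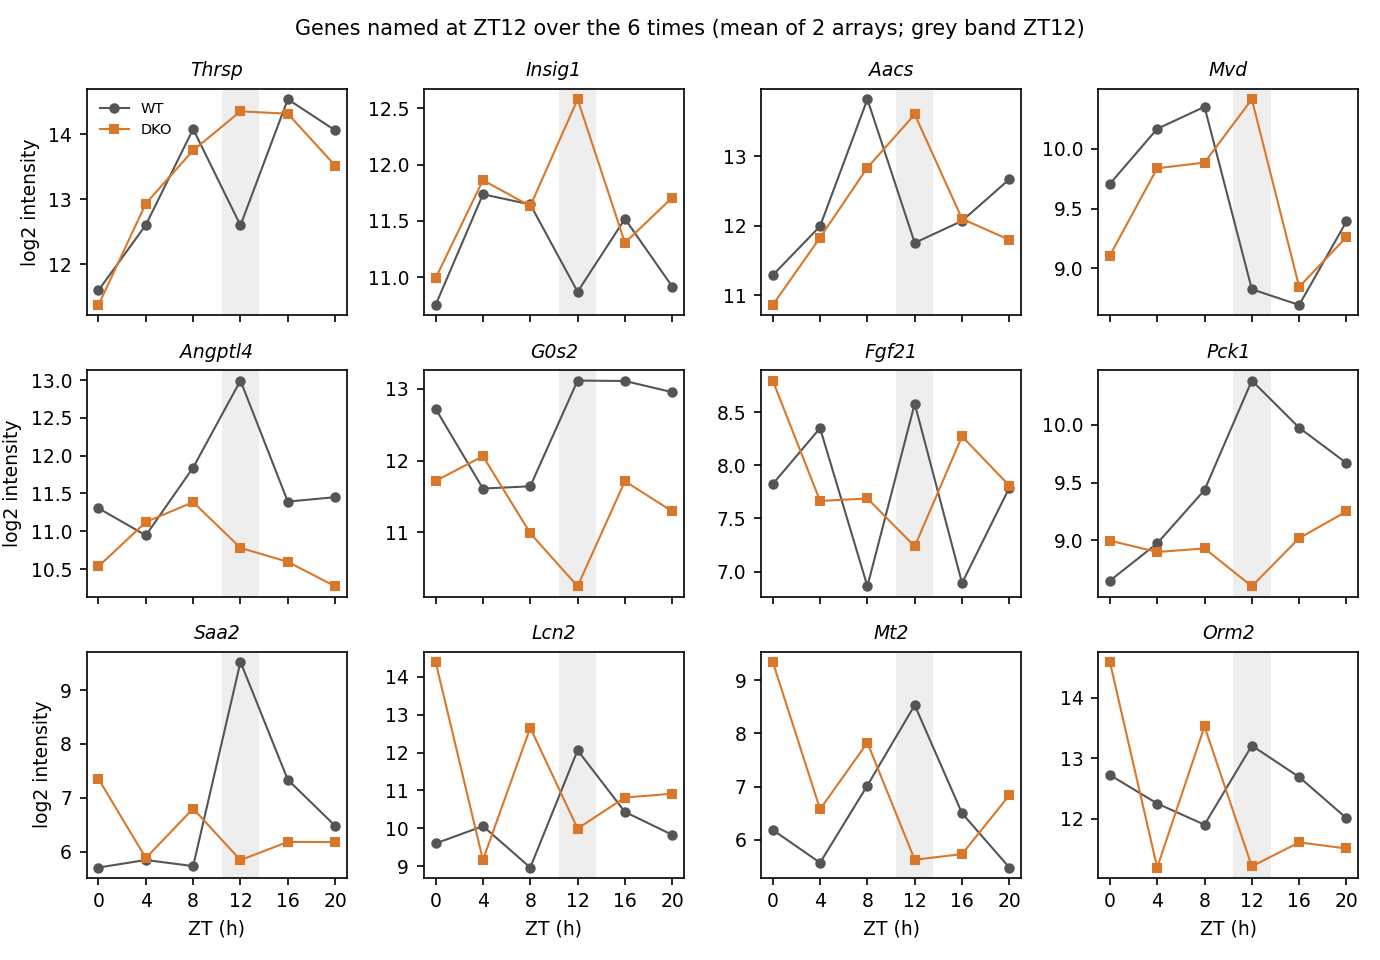
Lines join the means of 2 arrays (normalized log2 intensity, vertical axis) at 6 times of day (ZT in hours, horizontal axis) for 12 genes, orange squares for DKO and grey circles for WT, with ZT12 shaded. At ZT12 Thrsp, Insig1, Aacs and Mvd have their highest DKO value and a WT value below that of ZT8, while Angptl4, Pck1, Saa2 and Mt2 have their highest WT value there.

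Acute-phase proteins, which hepatocytes secrete in inflammation, were the list with the most lower genes, 7 of 22 measured with none higher and a median of -0.39. Saa2, a serum amyloid A protein, was at 6.06 and 5.63 in DKO, not detected, and at 9.18 and 9.86 in WT, at least 5.77-fold lower. Mt2, a metallothionein that binds zinc, was at 5.41 and 5.85 in DKO, also not detected, and at 8.49 and 8.57 in WT, at least 2.90-fold lower. Lcn2, an iron-siderophore binding protein, was at a mean of 9.99 in DKO, its arrays nearly equal, and at 11.99 and 12.13 in WT, or 4.19-fold lower. The genotypes did not overlap in any of them. Orm2 was 3.99-fold and Saa4 3.40-fold lower, and Saa1 at least 3.74-fold lower. Mt1 was lower by 1.81, with its WT arrays at the top of the scale. Abundant members such as Hp, Hpx and Fga lay at -0.04, 0.02 and -0.03, all at the top of the scale.

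The WT sample at ZT12 was itself high in these genes. WT Saa2 was at 9.52 at ZT12 and between 5.71 and 7.34 at the other 5 times, and WT Lcn2 was at 12.06 against 8.96 to 10.43. In DKO, Saa2 at ZT12 was at 5.85, below the 5.88 to 7.35 of the other times, with the probe not detected at ZT12, and Lcn2 was at 9.99, above the 9.16 of ZT4 and below the other times. DKO Lcn2 was at 14.40 at ZT0 and 12.66 at ZT8. In 9 of 22 acute-phase genes the DKO step from ZT8 to ZT12 was the lower 1, with a list median of -0.31 in DKO and 0.59 in WT, and each end of that step holds a sample with high values. Whether the WT mouse or mice sampled at ZT12 had an inflammatory state was not tested. Cxcl1, a chemokine outside the list, was 3.05-fold lower in DKO at ZT12, and was picked out after its value was seen.

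**Figure D5:**
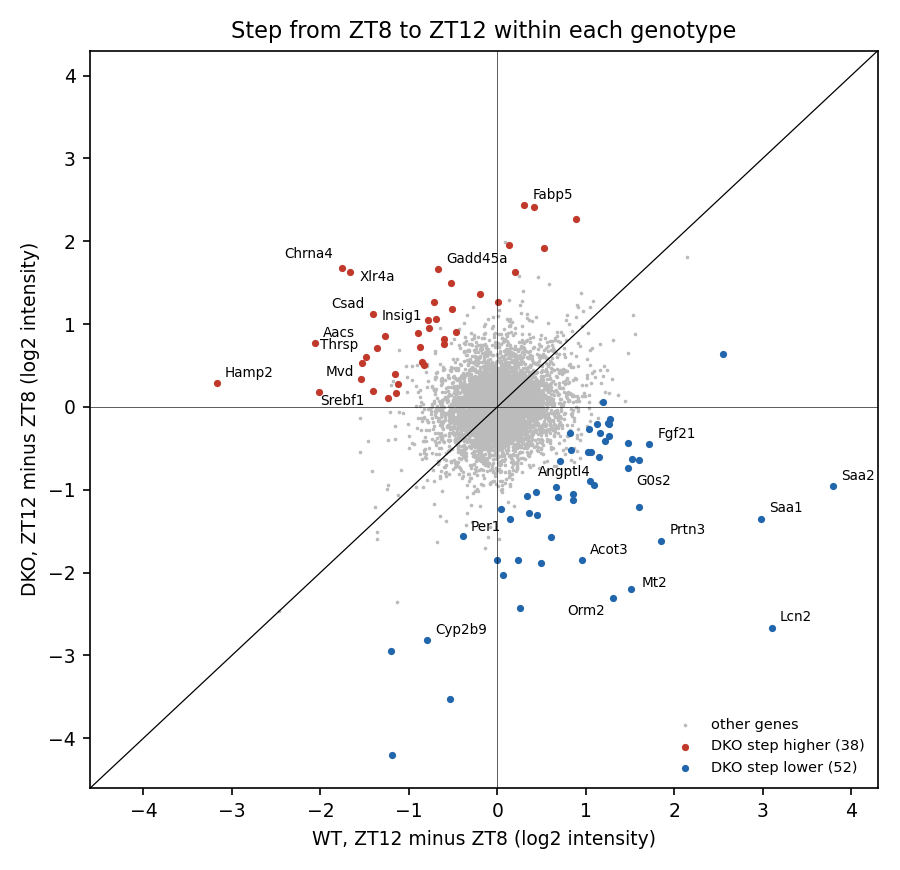
Each point is 1 gene, with the WT step from ZT8 to ZT12 on the horizontal axis and the DKO step on the vertical axis, both in log2 intensity, and the line of equal steps. The 38 genes with a higher DKO step, red, include Hamp2, Aacs, Thrsp and Mvd, and the 52 with a lower one, blue, include Lcn2, Saa2, Saa1 and Mt2.

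Some of the largest steps were in genes outside the lists discussed so far. Hamp2, a hepcidin gene, had a step of 0.29 in DKO and -3.17 in WT, Chrna4, a nicotinic receptor subunit, of 1.68 and -1.76, and Xlr4a of 1.63 and -1.67. Csad, for an enzyme of taurine synthesis, had a step of 1.12 and -1.40 and stood 0.83 higher in DKO at ZT12, which was not counted. On the lower side the largest steps were those of the acute-phase genes Lcn2, Saa2, Saa1, Mt2 and Orm2, followed by Prtn3. Prtn3, a protease of neutrophil granules, was at 7.20 and 7.30 in DKO and at 8.51 and 8.20 in WT at ZT12, with a gap of 0.90.

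Growth hormone dependent and sex-biased genes went both ways, with 6 of 17 measured higher, 2 lower and a median of 0.09. The higher members were Moxd1, Socs2, Elovl3, Cish, Obp2a and Hsd3b5. Socs2 and Cish, feedback inhibitors of growth hormone signalling, were 5.04-fold and 2.50-fold higher in DKO, with Socs2 at 12.38 and 12.41 against 10.07 and 10.05. Cyp2b9, a P450 with female-biased expression, was at 7.31 and 7.48 in DKO and at 11.07 and 10.90 in WT, or 12.0-fold lower. It was the lowest of 6 DKO times, the others lying between 9.72 and 11.69. Cyp2b23, outside the list, was at least 2.51-fold lower, and Cyp4a12a, a male-biased hydroxylase, was 2.52-fold lower. Igf1 differed by 0.09 and the growth hormone receptor Ghr by 0.00.

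The drug-metabolising P450s as a list stood at a median of 0.02, with 2 of 25 higher and 2 lower. Cyp2d12 was 6.64-fold and Cyp2c55 6.08-fold higher, and the lower pair were Cyp2b9 and Cyp2g1, the latter by at least 1.6-fold. Cyp17a1, the steroid 17-hydroxylase, was at 12.30 and 12.52 in DKO and at a mean of 10.09 in WT, or 4.97-fold higher, and its difference was positive at all 6 times, from 1.52 to 4.61. With Hsd17b6 and Hsd3b5, 3 of 8 steroid-modifying enzymes were higher and none was lower, with a median of 0.28. Gsta1, Gsta2 and Gsta4, of the alpha class, were 5.32-fold, 3.36-fold and 2.69-fold lower, while Gstm3 and Gstm2, of the mu class, were at least 2.20-fold and 2.45-fold higher. Gsta3 and Gstm4 lay at -0.08 and -0.29. The list of 26 conjugation genes had a median of -0.04.

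In the interferon list 4 of 22 measured genes were higher, none was lower, and the median was 0.20. Usp18, which damps interferon signalling, was at 11.18 and 11.32 in DKO and at 9.72 and 9.73 in WT, or 2.88-fold higher, and Rsad2, Ifit3 and Oasl1 were 2.74-fold, 2.51-fold and 2.51-fold higher. Markers of Kupffer cells, the resident macrophages of liver, were all on the same side, with 9 of 9 measured genes positive by 0.22 to 0.82 and none counted, and their median lay 0.45 to 0.51 above that of all genes under each scaling. Summed over the 10 Kupffer markers on the array, which include the undetected Cd5l, intensities were 19366 to 19738 on the DKO arrays and 13056 to 13559 on the WT arrays. Stellate cell and fibroblast markers had 6 of 7 measured genes positive, none counted, and a median of 0.66. Their median lay 0.29 to 0.66 above that of all genes under each scaling, lowest without background correction. The negative gene was Rgs5, at -1.17 and not detected in DKO. All 12 of these markers on the array, which include the undetected Pdgfrb, Col1a1, Col1a2, Col3a1 and Dpt, summed to 27590 to 27744 in DKO and 21492 to 24557 in WT. The brightest of them, Dcn, differed by 0.09. Whether cell content has a part in the interferon values was not tested. Neutrophil markers had S100a8 at 0.36 and S100a9 at -0.96, the second not detected in DKO and so not an exact size. Elane, detected on 1 array of each genotype, lay at -0.06, and Ngp, Camp, Ltf, Retnlg and Mpo were not detected on the 4 arrays. Of 10 lymphocyte markers on the array, 9 were not detected on any of the 4 arrays. The erythroid markers Hba-a1 and Alas2 were lower by 0.91 and by 0.47 in DKO. Summed over the 5 erythroid markers on the array, of which only these 2 were detected, intensities were 17867 to 19131 in DKO and 31957 to 34218 in WT.

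In the list of cell cycle and growth arrest genes 2 of 12 were higher, 1 was lower and 11 were positive, with a median of 0.67. Cdkn1a and Tubb2b, a beta tubulin, were the higher genes, the second at 11.54 and 11.51 in DKO and 8.81 and 8.91 in WT. Gadd45a, induced by DNA damage, was at 8.34 and 8.32 in DKO and at 9.72 and 9.79 in WT, or 2.69-fold lower. The replication genes Mcm2, Mcm4, Mcm5, Mcm6 and Mcm10 lay between 0.58 and 1.10 higher and were not counted. In amino acid catabolism Ddc and Gldc, of the glycine cleavage system, were the 2 higher genes of 28, Gldc at 14.80 and 14.99 against 13.02 and 12.92. In the list of stress genes Creld2, of the endoplasmic reticulum, was 3.82-fold higher and Asns, asparagine synthetase, at least 2.42-fold lower.

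Among nuclear receptors other than Rev-erb, 3 of 17 were lower and none was higher, with a median of -0.26. Pparg was at 7.94 and 7.81 in DKO and at 9.21 and 9.60 in WT, and Esr1, the estrogen receptor, was 2.43-fold lower. With Ppara these were the counted members, and Nr1i2 and Nr1i3, the xenobiotic sensors, lay at -0.98 and -0.79. Dio1, the enzyme that activates thyroid hormone, was 3.50-fold lower. Single counted genes stood in further lists, Hspb1 lower by 1.67, Map1lc3b lower by 1.32, the sterol exporter Abcg8 lower by 1.07 and Clpx, a mitochondrial chaperone acting in heme synthesis, higher by 1.24. No gene was counted among 29 cytosolic ribosomal proteins, 39 respiratory chain subunits, 27 proteasome subunits, 13 apolipoproteins, 16 ribosome biogenesis and translation genes and 8 immediate early genes. At the 3.34% counted over all genes, lists of these sizes would hold few or none, so the absence does not set them apart. The furthest in each were Rpl13a at -0.57, Atp5o at 0.56, Psmd1 at -0.60, Apoa4 at -0.69, Nop58 at 0.91 and Zfp36 at -0.81.

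Part of the pattern at ZT12 was present at other times of day, which are other RNA samples. Of the 104 genes higher at ZT12, 48 had a positive difference at all 5 other times. Of the 139 lower genes, 69 had a negative difference at all 5. The share of all genes with the same sign at all 5 was not computed. Whether these counts exceed that background therefore cannot be said. Of the 104 higher genes, 56 were also among the 127 genes higher at ZT8, which has the same arrangement of slides, and 14 among the 36 higher at ZT4. Of the 139 lower genes, 47 were among the 107 lower at ZT8 and 17 among the 40 lower at ZT4. At ZT0, ZT16 and ZT20 the shared higher genes were 28 of 242, 37 of 82 and 29 of 104 higher there. The shared lower genes were 36 of 102, 38 of 63 and 44 of 95 lower there. All these counts are out of 7272 genes measured. Acot1 was lower at all 6 times, with differences from -3.94 to -1.73.

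To ask whether a difference at ZT12 departed from the same difference at the other 5 times, limma was fitted to the 6 differences, with 4 residual degrees of freedom. After Benjamini-Hochberg adjustment over 7272 genes, limma called 0 genes at 0.05, or 0% of them. Its smallest adjusted p was 0.995, and 306 genes, or 4.21%, had an unadjusted p under 0.05. No difference is therefore called particular to ZT12. The genes with the smallest unadjusted p on the higher side were Mvd, Thrsp, Aacs, Tfrc, Rrp12, Insig1, Dnajc18 and Tubd1. Thrsp lay 1.95 ± 0.32 (SE) above its mean difference at the other times, and Mvd 1.86 ± 0.30. Tfrc, the transferrin receptor, was at 10.89 and 10.90 in DKO and at 8.61 and 8.63 in WT, and Rrp12, of ribosome assembly, was 2.50-fold higher. On the lower side they were Il1rn, Lgals4, Mustn1, Akap8, Per1, Zkscan17, Saa2 and Lrp6, with Il1rn, the interleukin 1 receptor antagonist, not detected in DKO at ZT12, at -2.26 ± 0.40 and Per1 at -1.75 ± 0.41. The other far lower genes at ZT12 were Aatk, Dct, Clstn3 and Mfsd2a, of which Clstn3 departed from its other times by 0.00 and Mfsd2a, a transporter of lysophosphatidylcholine, by -3.04 ± 0.89.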

How the data were processed

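Liver RNA was hybridised to Illumina bead arrays, after Trizol extraction with DNase clean-up and biotin labelling with an Ambion kit, per the labels' protocols. Scanner output came from GenomeStudio, per the submitters' processing notes, with no version named. Per the file headers, the deposited signal is a linear intensity, averaged over a probe's beads and not normalized between arrays, and the deposited detection p-value compares it with that array's negative control beads. A deposited table of the authors' processed intensity values, of unstated normalization, had medians of 278.76 to 278.97 and a Spearman correlation of 1 with the raw signals of each array.

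In limma 3.58.1 (R 4.3.3), raw intensities went through normexp background correction (control parameters estimated by way of detection p-values, offset 16), quantile normalization over all 24 arrays, and log2. A probe was kept if both arrays of a group had a detection p under 0.01 in 2 or more of 12 groups, which held for 10243 of 25697. Probes were named through the platform annotation, where 23978 had 1 symbol and an Entrez check updated 0, and the kept probe with the highest mean stood for each of 7272 genes. With 1 RNA sample per genotype, its 2 technical arrays were shown separately and their means compared, with no test. Their number limits the precision. Where no array of a genotype detected a probe, the fold is a bound, against the higher of the lowest detected signal and the probe's own signal on each array.

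The limma fit used 6 differences between genotypes, arrays averaged first, with an indicator for ZT12, and was tested on simulated data. Times of day take the place of replicates there, so its p-values reflect only how these samples scatter, part of which may be technical.

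The members, the 35 functional and 12 marker lists, and the tests were chosen with earlier results of these data known. The genes named were all measured clock-list genes, the 12 furthest apart in each direction, up to 4 per other list (or the furthest 1), the 8 smallest limma p-values and the 6 largest steps in each direction, passing over predicted transcripts. Further genes were named after their values were seen, namely other list members, Cxcl1, and those in the closing observations. Alternatives covered the offset, no background correction, median scaling, the authors' values, the filters, the probe per gene, the size of the gap, left-out arrays and times, robust variances and a slide term. Median scaling with the median difference removed, the count without the acute-phase list and the fit without ZT0 and ZT8 were added after seeing the data. Promoters were from the RefSeq table on GRCm38.p6. No build is named for the arrays.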

Additional observations from a re-analysis of the deposited data

Results flagged for a closer look

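In 13 named genes, in 17 of the 26 gene and time pairs found over all genes, the arrays lay at least 1 apart in opposite directions at ZT12 and at some other time, a difference between times that was not tested. Each time is 1 RNA sample per genotype. Lcn2 was at -2.07 (DKO minus WT, log2) at ZT12 and higher by 4.80 at ZT0, by 3.70 at ZT8 and by 1.09 at ZT20. Orm2 was at -2.0 at ZT12, 1.87 at ZT0 and 1.62 at ZT8. Mt2 was at -2.90 at ZT12 and 3.15 at ZT0, and Saa1 at -2.54 and 1.79 at ZT8. Il1rn, an interleukin 1 antagonist, was at -1.29 at ZT12 and 1.58 at ZT20. In DKO, Lcn2 stood at 14.40 at ZT0 and 12.66 at ZT8, against 9.60 and 8.96 in WT. Mt2, Saa1, Il1rn and Asns were not detected in DKO at ZT12, so their differences there are not exact sizes.

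Fgf21 was at -1.34 at ZT12 and 1.38 at ZT16, and Asns, asparagine synthetase, at -1.59 and 3.09 at ZT20. Mfsd2a was at -2.84 at ZT12 and 1.59 at ZT4, and the sterol exporter Abcg8 at -1.07 and 1.37 at ZT20. Among genes higher in DKO at ZT12, Elovl3 was at 1.33 there, -2.69 at ZT0 and -1.48 at ZT4. Creld2 was at 1.93 at ZT12 and -1.19 at ZT0, Hamp2 at 1.84 and -1.62 at ZT8, and Chrna4 at 2.27 and -1.16 at ZT8.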

How the results depend on the processing

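The counts rested on the background correction and the scaling. For 110 named genes, 83 of them called, 1293 values were recomputed, and 337 moved by more than the SD between arrays. No called difference changed sign. Leaving out 1 array could not change it, because the arrays of a called gene do not overlap between genotypes. Rora and Alas1, near equality and not called, changed sign when 1 array was left out. Genes apart in all (243), higher (104) and lower (139) numbered 108, 52 and 56 without background correction, 110, 52 and 58 with the authors' values, 417, 50 and 367 with median scaling, 158, 69 and 89 with probes detected on all 4 arrays, and 754, 352 and 402 at a 1.5-fold gap. Leaving out 1 array gave 317 to 394 genes apart, 143 to 151 higher and 168 to 248 lower, since fewer arrays must be cleared, and the most lower genes came without DKO replicate 1. The 90 different steps (38 higher, 52 lower) numbered 53 (23 and 30) without background correction, 55 (24 and 31) with the authors' values and 55 (27 and 28) with probes detected on all 8 arrays. Leaving out 1 array gave 112 to 138 steps, 50 to 62 higher and 58 to 81 lower, with 138 without DKO replicate 1 and 137 without DKO replicate 2. Why the correction matters was not tested. Lists at least 0.2 from the median of all genes numbered 14 of 32, and 10 to 15 under the alternatives. Relative to all genes, the medians of triglyceride assembly, insulin and fasting signals, conjugation and thyroid genes and of the hepatocyte and neutrophil markers changed sign under a scaling. The limma fit called 0 genes under every alternative run, with 222 to 535 genes at an unadjusted p under 0.05 among 7272 tested, 706 of 16593 without the filter, 251 of 5698 with probes detected on all arrays, and a smallest adjusted p of 0.313 to 0.9997. Probes not detected in a genotype have at most a bound, 34 of the 104 higher and 46 of the 139 lower genes. No paired analysis was possible because the replicate numbers mark technical arrays of 1 RNA sample per genotype.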

Other observations

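Genes outside the lists, picked out after their values were seen, included several of fatty acid handling among the lower genes. Cyp4a31, a fatty acid hydroxylase, was at 9.43 and 8.86 in DKO and at 11.18 and 11.19 in WT, lower by 2.04. Slc22a5, the carnitine transporter, was at 8.61 and 8.65 in DKO and at 10.86 and 10.96 in WT, lower by 2.28. The arrays of the genotypes did not overlap in either gene. Aldh3a2, a fatty aldehyde dehydrogenase, was lower by 1.73, the peroxisomal thiolase Acaa1b by 1.32, the retinol saturase Retsat by 1.24, the monoglyceride lipase Mgll by 1.31 and Pex11a, of peroxisome division, by 1.07. Noct, which encodes nocturnin, a protein known for its nightly peak, was at 9.33 and 9.69 in DKO and at 11.96 and 11.92 in WT, lower by 2.44.

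Secreted signals were found on both sides. Igfbp3, a binding protein for insulin-like growth factors, was higher in DKO by 1.66, Bmp4 by 1.42 and Inhba, for an activin subunit, by 1.26, while Inhbe, for another activin subunit, was lower by 1.72. Avpr1a, the liver vasopressin receptor, was at 13.36 and 13.31 in DKO and at 11.61 and 11.47 in WT. Dnmt3b, a DNA methyltransferase, was at 10.61 and 10.55 in DKO and at 8.29 and 8.03 in WT, higher by 2.42. Tbx3, a pericentral hepatocyte factor in mouse liver, was lower by 1.62, at 9.38 and 9.36 against 10.81 and 11.16. It is in the list of 10 pericentral hepatocyte markers, whose members went both ways, 4 above 0 and 6 below, with a median of -0.21. The pericentral enzyme Cyp2e1, in the same list, differed by 0.03 at the top of the scale.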
